A study of Homo sapiens with 12 samples.

Results

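The 50 genes described here encode the machinery that licenses replication origins, fires them and copies DNA at the fork. They were chosen by name, and each name matched 1 row of the 58735 genes in the count table. All 50 were among the 16646 genes that passed the filter on low counts. Poly(A) RNA was sequenced from C4.2B, an LNCaP-derived prostate cancer line that grows without androgen, in 4 arms of 3 libraries each (A, B and C). Cells received DMSO vehicle, or 0.25 μM of ipatasertib, which inhibits AKT (AKTi), or 1 μM of tazemetostat, which inhibits EZH2 (EZH2i), or the 2 drugs at these doses (combination). Tazemetostat was given for 6 days in the last 2 arms before day 0, and all cells were collected 24 hours after day 0 in medium with charcoal-stripped FBS, so the arms with an EZH2 inhibitor had a longer exposure to drug than AKTi. As the paper describes it, cells of 1 line were first pretreated and afterwards seeded in triplicate plates. The p-values therefore measure the spread between these plates, and a spread between separate pretreatments is not shown. The 7 luminal prostate markers checked, including KLK3, were detected in all 12 libraries. Of the markers of other cell types, CD3E (T cells) was at 0 in all 12, CDH5 (endothelium) in 10, PECAM1 (endothelium) in 9, DCN (fibroblasts) in 7 and PTPRC (leukocytes) in 3. CD68 (macrophages), COL1A1 and PDGFRB (fibroblasts) and VWF (endothelium) had counts in all 12, with at most 9, 383, 41 and 128 reads in a library.

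Replication begins with licensing in G1, when the origin recognition complex (ORC) binds DNA and, with CDC6 and CDT1, loads the ring-shaped MCM2-7 helicase. Geminin (GMNN) binds CDT1 and blocks further loading. At the start of S phase the kinase CDC7 with its activator DBF4, and the factors MCM10, CDC45 and GINS, turn the loaded ring into a moving helicase, after which polymerase alpha-primase lays down primers, the RFC clamp loader places the sliding clamp PCNA, and polymerases delta and epsilon extend the strands. Many of these genes are transcribed periodically in dividing cells and are classical targets of E2F transcription factors.

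The replication genes were lower in each treated arm than in DMSO, and lowest in the combination. Their summed level was 5491 to 5708 CPM (counts scaled to a common library size by the trimmed mean of M values, TMM) in the DMSO libraries, 3439 to 3532 with AKTi, 2475 to 2543 with EZH2i and 1241 to 1306 in the combination, with no overlap between arms. With edgeR's quasi-likelihood test at an adjusted p-value under 0.05, 49 of 50 were lower with AKTi, 49 with EZH2i and 49 in the combination, and 0 were higher in any of the 3. Over all genes tested, 21.9% were called lower and 20.6% higher with AKTi, 31.5% and 32.6% with EZH2i, and 35.2% and 38% in the combination. The median log2 fold change of the 50 genes was -0.76 with AKTi, -1.27 with EZH2i and -2.48 in the combination, beside 0.01, 0.03 and 0.06 over all genes tested. Scaling by library size alone moved the median of all genes in the combination from 0.06 to 0.26, and that of the 50 genes stayed between -2.53 and -2.28 under every alternative run. These 3 comparisons share the DMSO libraries. POLD2 was the gene not called with AKTi, and ORC3 the one not called with EZH2i or in the combination. In bulk RNA, fewer cells in S phase and less of each transcript per cell cannot be told apart.

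For 38 of the 50 genes the CPM values of the 4 arms did not overlap and ran from DMSO to AKTi, EZH2i and then the combination, an order found in 7.39% of all genes tested. For 47 of 50, every combination library lay below every other library, against 19.7% of all genes, and the exceptions were ORC3, ORC4 and RFC1.

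**Figure D1:**
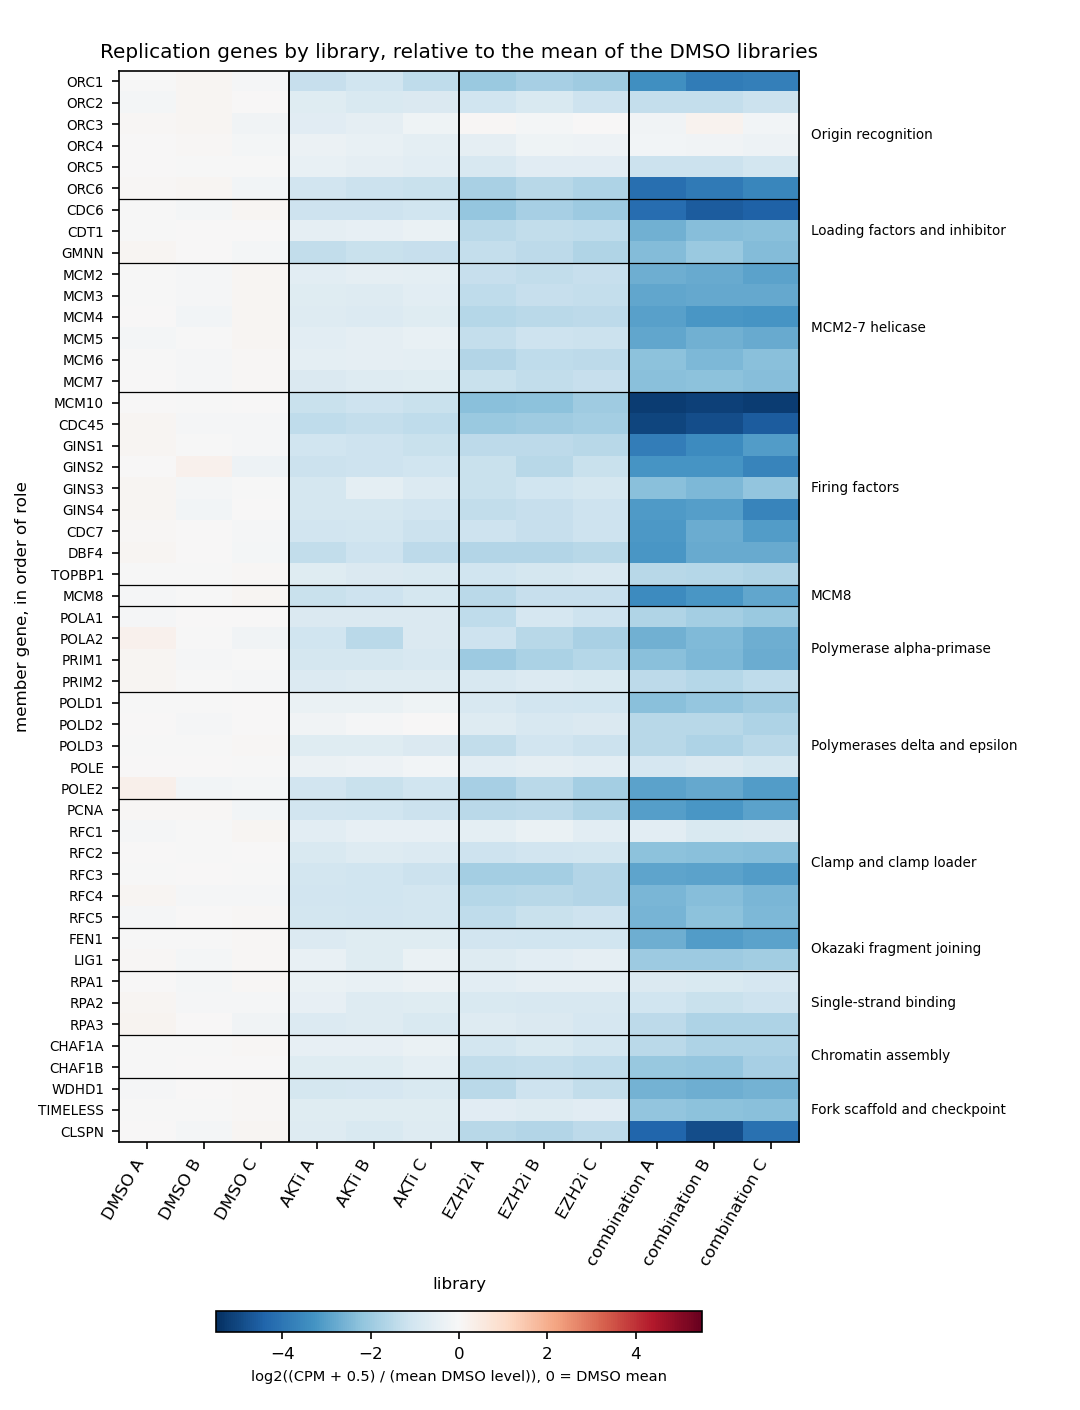
Heat map of the 50 genes (rows, grouped by role) in the 12 libraries (columns), coloured by the log2 level (CPM + 0.5) relative to the mean of the DMSO libraries. The combination columns are the darkest blue in nearly every row, MCM10 and CDC45 reach the deepest shade, and ORC3 and ORC4 stay near white.

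Promoter sequence was examined as a description. The genes were chosen by name, but many are classical E2F targets, so a high share of E2F-like letters could be anticipated. That share is therefore not independent support. Of the 50 genes, 44 had a promoter window (250 bases before to 50 after the start) in the RefSeq table for GRCh38.p14. E2F-like letters, taken as TTTCCCGC, TTTGGCGC, TTTCGCGC or TTTGCCGC on either strand, stood in a window of 22 of these 44 genes (50%) and of 4.0% of the 27305 genes in the table. The E-box letters CACGTG were present in 20.5% of the 44 genes and 8.8% of all genes, and CCAAT on either strand in 56.8% and 39.7%. All genes here means every gene with a window, not matched to the 44 for expression or for G and C content. The median log2 fold change in the combination was -2.84 for the 22 genes with E2F-like letters and -2.29 for the 22 without, and both groups held genes with large and with small changes. The stretches from 120 bases before to 30 bases after the start are printed for 7 genes with large, middling and small changes, chosen after their values were seen to show windows with and without the letters. CDC6, MCM2, PCNA and CLSPN carried the letters and fell, and ORC3 carried them and was not called in the combination. MCM10 and RFC1, at the largest and one of the smallest falls, did not carry them. Close variants were not searched, such as TTTGGCGG, which stands in the printed MCM10 stretch. Genes counted as without the letters may therefore hold such variants. The RefSeq start lay within 100 bases of the gene's start in the count table for 26 of the 44 genes. Capitals mark the E2F-like letters, and in MCM2 matches on both strands overlap.
CDC6, chr17:40287759-40287908, plus strand: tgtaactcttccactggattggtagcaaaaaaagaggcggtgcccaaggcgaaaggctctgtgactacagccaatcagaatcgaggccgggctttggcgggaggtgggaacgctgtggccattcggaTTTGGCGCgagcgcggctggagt
MCM2, chr3:127598291-127598440, plus strand: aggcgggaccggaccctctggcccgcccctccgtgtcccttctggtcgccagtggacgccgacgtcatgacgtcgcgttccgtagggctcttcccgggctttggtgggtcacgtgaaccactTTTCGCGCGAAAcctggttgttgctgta
PCNA, chr20:5126593-5126742, minus strand: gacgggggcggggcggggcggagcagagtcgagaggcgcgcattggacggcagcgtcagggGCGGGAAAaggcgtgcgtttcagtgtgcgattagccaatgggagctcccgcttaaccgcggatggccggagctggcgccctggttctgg
CLSPN, chr1:35769949-35770098, minus strand: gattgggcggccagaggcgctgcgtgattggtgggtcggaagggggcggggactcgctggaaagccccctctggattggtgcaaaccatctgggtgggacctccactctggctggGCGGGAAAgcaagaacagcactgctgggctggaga
ORC3, chr6:87590015-87590164, plus strand: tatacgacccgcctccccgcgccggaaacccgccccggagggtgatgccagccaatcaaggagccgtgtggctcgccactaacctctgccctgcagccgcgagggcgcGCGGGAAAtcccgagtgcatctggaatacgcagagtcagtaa
MCM10, chr10:13161438-13161587, plus strand: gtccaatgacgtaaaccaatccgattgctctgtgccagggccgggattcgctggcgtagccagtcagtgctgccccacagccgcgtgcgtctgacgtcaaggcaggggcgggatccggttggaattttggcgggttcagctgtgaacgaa
RFC1, chr4:39366333-39366482, minus strand: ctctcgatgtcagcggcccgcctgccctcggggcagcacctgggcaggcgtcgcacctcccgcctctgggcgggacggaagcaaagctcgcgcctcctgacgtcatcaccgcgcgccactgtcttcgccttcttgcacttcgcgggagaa

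The 6 subunits of the origin recognition complex had the widest range of change in the combination of all role groups. ORC1 (hg38 chr1:52372829-52404459, minus strand), an ATPase subunit that is degraded after each licensing round in human cells, and ORC6 fell the most, and ORC3 and ORC4 changed the least. ORC6 had 61, 63 and 53.1 CPM in DMSO, 28, 25.6 and 25 with AKTi, 16.9, 20.1 and 18 with EZH2i and 2.89, 3.46 and 4.47 in the combination. The arms did not overlap, and the log2 fold change was -1.17 ± 0.10 (SE) with AKTi, -1.68 ± 0.10 with EZH2i and -4.04 ± 0.12 in the combination (adjusted p = 2.03e-26). ORC1 followed with -1.26 ± 0.10, -1.98 ± 0.11 and -3.82 ± 0.13. ORC3, a core subunit at low level, had 12.3, 12.4 and 10.2 CPM in DMSO, 7.31, 8.13 and 9.66 with AKTi, 12.3, 10.8 and 11.8 with EZH2i and 10.1, 13.3 and 10.5 in the combination. Its EZH2i and combination libraries overlapped those of DMSO, with log2 fold changes of 0.01 ± 0.14 (95% interval -0.31 to 0.32) and -0.03 ± 0.14 (-0.35 to 0.28), and the sign of the combination value turned positive with other scalings (0.164 by library size, 0.151 by upper quartile). With AKTi ORC3 was lower, at -0.46 ± 0.15, a call that was lost when AKTi library A was left out (-0.38, adjusted p = 0.0621). ORC4 had 51, 52.2 and 46.8 CPM in DMSO, 39.4, 37.3 and 34.8 with AKTi, 35.8, 42.3 and 41.2 with EZH2i and 44.9, 43.2 and 40.6 in the combination. It was lower in each treated arm, at -0.42 ± 0.08, -0.32 ± 0.08 and -0.22 ± 0.08. The combination call was lost with scaling by library size (-0.02, adjusted p = 0.829) or upper quartile (-0.03, adjusted p = 0.718). It was also lost with at least 10 counts in every library (-0.15, adjusted p = 0.0774) and without combination library C (-0.18, adjusted p = 0.0626). ORC2 had 44.5, 52.1 and 49.8 CPM in DMSO, 30.4, 27.3 and 27.6 with AKTi, 22.6, 27.4 and 22.1 with EZH2i and 19.1, 19.4 and 21.2 in the combination, with its EZH2i and AKTi libraries overlapping. Its log2 fold changes were -0.78 ± 0.09, -1.03 ± 0.09 and -1.30 ± 0.09, and those of ORC5 were -0.50 ± 0.08, -0.71 ± 0.08 and -1.15 ± 0.08.

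Per length, ORC1, ORC5 and ORC6 were the highest ORC subunits in DMSO, within their spread of each other. In the combination ORC6 and ORC1 were the lowest, again within their spread of each other. In RPKM, the CPM value per kilobase of gene length, ORC1 stood at 15.1 ± 0.869 in DMSO, 6.31 ± 0.638 with AKTi, 3.82 ± 0.331 with EZH2i and 1.06 ± 0.237 in the combination (SD, n = 3). ORC5 was the highest in the 3 treated arms, with 14.8 ± 0.23 in DMSO, 10.5 ± 0.684 with AKTi, 9.04 ± 0.826 with EZH2i and 6.7 ± 0.45 in the combination. ORC6 stood at 13.7 ± 1.22 in DMSO and 0.837 ± 0.186 in the combination. The highest subunit exceeded the lowest 4.8-fold in DMSO and 8.01-fold in the combination, and 2.87-fold in EZH2i.

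Of the loading factors, CDC6 (hg38 chr17:40287633-40304657, plus strand), the ATPase that recruits the helicase to ORC, fell the most. CDC6 had 159.5, 149 and 172 CPM in DMSO, 72.3, 71.4 and 74.6 with AKTi, 36.2, 45.2 and 39.6 with EZH2i and 8.21, 6.28 and 6.89 in the combination. The arms were well separated, at 45.4%, 25.2% and 4.45% of the DMSO level, with a log2 fold change of -4.48 ± 0.09 in the combination (adjusted p = 2.64e-31). CDT1, which brings MCM2-7 to the origin, had 75.8, 77.3 and 77.6 CPM in DMSO, 54.5, 56.3 and 59.4 with AKTi, 26.9, 29.5 and 28.7 with EZH2i and 12, 14.6 and 15.2 in the combination. Its log2 fold change was -0.44 ± 0.07 with AKTi, -1.44 ± 0.08 with EZH2i and -2.47 ± 0.08 in the combination. GMNN, the inhibitor of CDT1, had 74.5, 68.9 and 63.4 CPM in DMSO, 26.6, 28.8 and 28.2 with AKTi, 27.7, 25.1 and 21.6 with EZH2i and 12.7, 16.1 and 12.7 in the combination. GMNN changed by -1.31 ± 0.09 with AKTi and -1.48 ± 0.09 with EZH2i, whose libraries overlapped, and by -2.31 ± 0.10 in the combination.

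All 6 helicase subunits, MCM2 to MCM7, were lower in every treated arm. They fell by 0.49 to 0.72 on the log2 scale with AKTi, by 1.22 to 1.5 with EZH2i and by 2.30 to 3.16 in the combination. MCM2 had 208, 205 and 228 CPM in DMSO, 143, 151 and 145 with AKTi, 88.2, 82.2 and 89.5 with EZH2i and 33.2, 30.6 and 27 in the combination. MCM3 had 259.6, 259 and 284 CPM in DMSO, 169, 161 and 178 with AKTi, 100.4, 112 and 106 with EZH2i and 36.3, 37 and 37.3 in the combination. MCM4, the subunit with the largest fall in the combination, had 315, 286 and 341 CPM in DMSO, 190.0, 187 and 199 with AKTi, 107, 113 and 114 with EZH2i and 39.5, 33.6 and 32.4 in the combination. In all 3 the arms stood in the same order without overlap. MCM5 had 163, 172 and 188 CPM in DMSO, 116, 125 and 132 with AKTi, 69.8, 79.1 and 75.4 with EZH2i and 23.9, 27.6 and 25.2 in the combination. MCM6 had 153, 149 and 164 CPM in DMSO, 107, 111 and 107 with AKTi, 50.8, 58.3 and 57.2 with EZH2i and 31.8, 27.9 and 31 in the combination. MCM7, with the smallest fall, had 438, 410.1 and 449 CPM in DMSO, 252, 265 and 273 with AKTi, 184, 169 and 181 with EZH2i and 88.1, 89.3 and 86.1 in the combination. These subunits showed the same order, and the combination kept between 11.2% (MCM4) and 20.3% (MCM7) of the DMSO level. In the combination the log2 fold change was -2.82 ± 0.07 for MCM2, -2.86 ± 0.06 for MCM3, -3.16 ± 0.07 for MCM4, -2.77 ± 0.07 for MCM5, -2.36 ± 0.07 for MCM6 and -2.30 ± 0.06 for MCM7. Although the subunits act in a ring with 1 copy of each, their RNA levels per length differed, from 23.8 RPKM (MCM5) to 98.6 (MCM7) in DMSO and from 3.48 to 20 in the combination, and the same genes were lowest and highest in all 4 arms. The highest exceeded the lowest 4.15-fold in DMSO, 3.53-fold in AKTi, 3.98-fold in EZH2i and 5.75-fold in the combination. This ranking depends on the deposited gene lengths, which were 7338 bases for MCM5 and 4386 for MCM7. In CPM, MCM6 (mean 155.4) lay below MCM5 (174.4) in DMSO. MCM8, a related helicase outside the ring that acts in recombination, had 46.5, 48.7 and 52.6 CPM in DMSO, 20.5, 22.4 and 24.7 with AKTi, 17.4, 20.4 and 20.1 with EZH2i and 4.06, 4.96 and 6.34 in the combination, without overlap between the arms. Its log2 fold change in the combination was -3.28 ± 0.12.

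**Figure D2:**
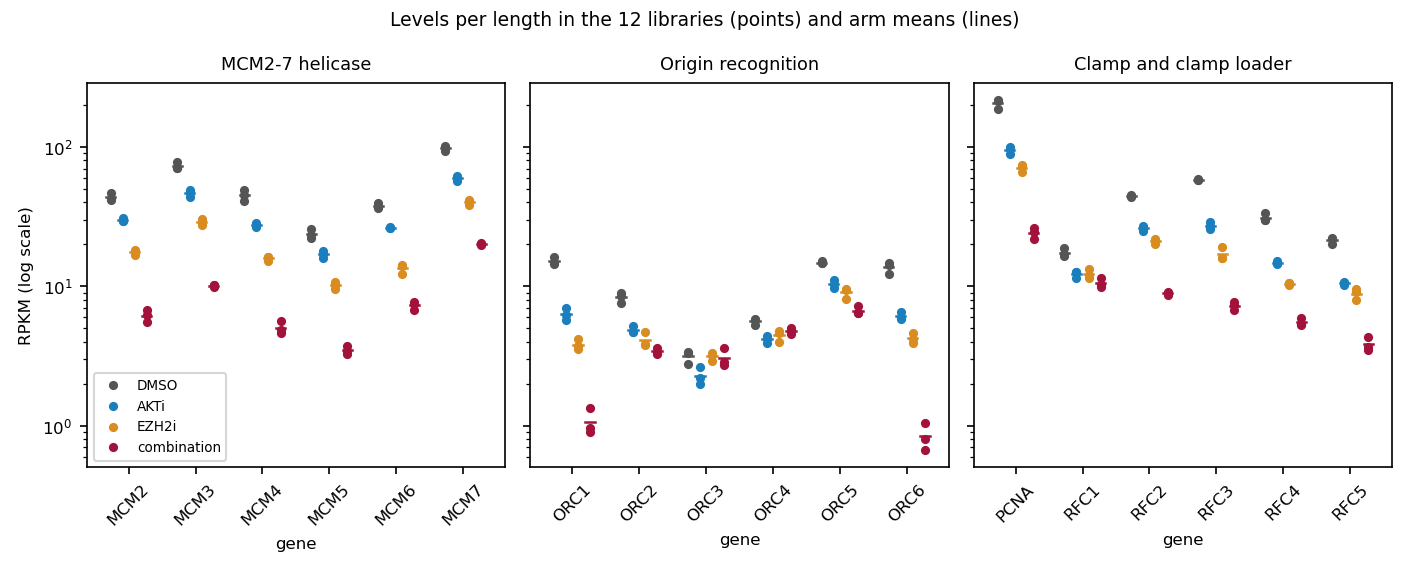
RPKM on a log axis in each library (points) with the arm mean (line) for the MCM2-7 helicase, the origin recognition complex and the clamp with its loader, coloured by arm. The 6 MCM genes step down in parallel, whereas ORC1 and ORC6 drop to about 1 RPKM in the combination while ORC3 and ORC4 change the least.

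The firing factors fell the furthest of the role groups of 3 or more genes in the combination, with a median log2 fold change of -3.36 over 9 genes. MCM10 (hg38 chr10:13161554-13211104, plus strand), which is needed to activate the loaded helicase, had 88.4, 84.8 and 87.5 CPM in DMSO, 37, 39 and 36.5 with AKTi, 17.3, 17.7 and 22.3 with EZH2i and 1.83, 1.96 and 1.87 in the combination. It kept 43.2%, 22% and 2.17% of the DMSO level in the 3 treated arms, and its log2 fold change of -5.52 ± 0.12 in the combination was the largest fall among the 50 genes (adjusted p = 8.75e-31). CDC45 (hg38 chr22:19479459-19520612, plus strand), part of the active helicase, had 85.4, 76.1 and 76.5 CPM in DMSO, 29.4, 32.1 and 29.5 with AKTi, 18.7, 19.9 and 21.3 with EZH2i and 1.88, 2.19 and 2.84 in the combination. Again the arms were separate, and the change was -1.39 ± 0.08, -1.98 ± 0.09 and -5.12 ± 0.12. The GINS subunits, the third component of the active helicase, changed by -3.47 ± 0.10 (GINS1), -3.49 ± 0.13 (GINS2), -2.45 ± 0.14 (GINS3) and -3.36 ± 0.12 (GINS4) in the combination, against -1.17 ± 0.08, -1.16 ± 0.11, -0.76 ± 0.13 and -1.01 ± 0.10 with AKTi and -1.48 ± 0.08, -1.35 ± 0.11, -1.13 ± 0.13 and -1.26 ± 0.10 with EZH2i. CDC7, the kinase that phosphorylates MCM2-7, had 54.3, 53 and 50.6 CPM in DMSO, 25, 26.1 and 22.9 with AKTi, 23.3, 21.6 and 23.8 with EZH2i and 5.48, 7.61 and 5.8 in the combination. DBF4, its activating subunit, had 85.4, 79.3 and 72.3 CPM in DMSO, 30.4, 35.5 and 28.5 with AKTi, 25.7, 25.4 and 26.8 with EZH2i and 8.06, 11.1 and 11.2 in the combination. Both were lower in the 3 treated arms, and the combination values were -3.07 ± 0.11 and -2.97 ± 0.10. TOPBP1, a scaffold for origin firing and for ATR activation, changed the least of the group, and it had 123, 125 and 131 CPM in DMSO, 79.6, 72.9 and 70.6 with AKTi, 59.3, 63.6 and 67.7 with EZH2i and 44.1, 42.3 and 39.3 in the combination. The TOPBP1 arms did not overlap, with log2 fold changes of -0.77 ± 0.07, -0.99 ± 0.07 and -1.60 ± 0.07.

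Polymerase alpha-primase, which starts each strand with an RNA-DNA primer, was lower in all 4 subunits and all 3 treated arms. POLA2, the B subunit, had 13.3, 10.8 and 9.59 CPM in DMSO, 4.92, 3.71 and 6.26 with AKTi, 4.75, 3.51 and 2.89 with EZH2i and 1.37, 1.67 and 1.33 in the combination. These were low values with wide spread, and its log2 fold changes were -1.17 ± 0.20, -1.61 ± 0.20 and -2.94 ± 0.23. PRIM2, the large primase subunit, had 51, 46.7 and 46 CPM in DMSO, 28, 29 and 28.9 with AKTi, 26.1, 28.5 and 26.7 with EZH2i and 17.1, 15.6 and 17.9 in the combination. The AKTi and EZH2i libraries of PRIM2 overlapped, and the combination value of -1.51 ± 0.09 was the smallest fall in the complex. The catalytic subunit POLA1 changed by -0.79 ± 0.09, -1.16 ± 0.09 and -1.87 ± 0.09, and the small primase subunit PRIM1 by -0.96 ± 0.11, -1.79 ± 0.11 and -2.58 ± 0.12.

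The extending polymerases delta and epsilon held the smallest AKTi changes of the 50 genes. POLD2, the second subunit of polymerase delta, was not called with AKTi, at -0.07 ± 0.06 (95% interval -0.20 to 0.06), but fell with EZH2i (-0.81 ± 0.06) and in the combination (-1.58 ± 0.06). The catalytic subunit POLD1 changed by -0.33 ± 0.08, -1.03 ± 0.08 and -2.18 ± 0.09, and the accessory subunit POLD3 by -0.73 ± 0.09, -1.21 ± 0.10 and -1.62 ± 0.10. POLE, the catalytic subunit of the leading-strand polymerase epsilon, had 70.4, 70.7 and 69.8 CPM in DMSO, 56.8, 58.7 and 62.7 with AKTi, 47, 49.9 and 47.4 with EZH2i and 37.1, 40.6 and 35.3 in the combination. These values were lower in each arm, at -0.24 ± 0.07, -0.55 ± 0.07 and -0.90 ± 0.07. POLE2, its second subunit, had 23.1, 16.7 and 17.4 CPM in DMSO, 8.83, 7.78 and 8.69 with AKTi, 4.89, 6.49 and 4.82 with EZH2i and 2.03, 2.25 and 1.81 in the combination. POLE2 was lower in every arm, at -1.18 ± 0.15, -1.82 ± 0.15 and -3.22 ± 0.18. Per length, POLD2 was the most abundant of the 5 in all arms, at 108 RPKM in DMSO and 36.2 in the combination.

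PCNA (hg38 chr20:5114953-5126626, minus strand), the sliding clamp that tethers the polymerases, was the most abundant of the 50 genes per length in DMSO, with RPKM values of 205 ± 16.2 in DMSO, 94.9 ± 5.57 with AKTi, 71 ± 4.64 with EZH2i and 24.2 ± 2.2 in the combination (SD, n = 3). PCNA had 314, 317 and 274 CPM in DMSO, 146, 142 and 131 with AKTi, 107, 109 and 96.6 with EZH2i and 36.2, 32 and 38.4 in the combination. The arms were apart, and the log2 fold change was -1.11 ± 0.07, -1.53 ± 0.07 and -3.09 ± 0.07 (combination adjusted p = 8.31e-30). Of the 5 subunits of its loader, the 4 small ones changed in the combination by -2.32 ± 0.07 for RFC2, -3.00 ± 0.08 for RFC3, -2.49 ± 0.08 for RFC4 and -2.48 ± 0.09 for RFC5. RFC3 had 167, 169 and 165 CPM in DMSO, 82.6, 77.6 and 74 with AKTi, 45.6, 45.6 and 54.7 with EZH2i and 22.1, 21.2 and 19.5 in the combination. RFC1, the large subunit, had 111, 114 and 126 CPM in DMSO, 77.7, 84.8 and 85.4 with AKTi, 81.6, 89.6 and 77.4 with EZH2i and 77.5, 66 and 68.1 in the combination. RFC1 changed less, by -0.51 ± 0.07, -0.50 ± 0.07 and -0.73 ± 0.07, and its EZH2i libraries overlapped both AKTi and the combination.

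Okazaki fragments are trimmed by the nuclease FEN1 and sealed by the ligase LIG1. FEN1 had 159, 159 and 171 CPM in DMSO, 96.9, 104 and 103 with AKTi, 78.3, 77 and 76.6 with EZH2i and 24.8, 19.1 and 21 in the combination. LIG1 had 26.7, 23.7 and 26.4 CPM in DMSO, 19, 15.8 and 19.5 with AKTi, 15.7, 16.8 and 17.8 with EZH2i and 5.93, 5.94 and 6.4 in the combination. For LIG1 the single agents overlapped, at -0.50 ± 0.11 and -0.61 ± 0.11, and the combination lay apart at -2.07 ± 0.12, as did FEN1, at -0.69 ± 0.06, -1.08 ± 0.07 and -2.91 ± 0.07.

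The 3 subunits of RPA, which coats single-stranded DNA in replication and repair, were lower in every treated arm. RPA1, the large subunit, had 360.0, 332 and 372 CPM in DMSO, 276, 266 and 284 with AKTi, 240.1, 253 and 253 with EZH2i and 203, 198 and 184 in the combination. RPA3, the small subunit, had 96.8, 87.6 and 76.9 CPM in DMSO, 51.8, 53.2 and 48.4 with AKTi, 52.4, 49.2 and 45.6 with EZH2i and 31.3, 26.4 and 26.5 in the combination. The combination libraries were the lowest for both, at -0.86 ± 0.06 and -1.63 ± 0.08, and RPA2 changed by -0.61 ± 0.07, -0.87 ± 0.07 and -1.17 ± 0.08 with AKTi, EZH2i and both. CHAF1A and CHAF1B, subunits of the factor that deposits new histones behind the fork, were lower in each arm. CHAF1A had 78.3, 76.9 and 81.4 CPM in DMSO, 56.9, 57.3 and 61.7 with AKTi, 38.4, 43.3 and 38.7 with EZH2i and 28.2, 23.9 and 24 in the combination. CHAF1B had 48.9, 51.1 and 50.5 CPM in DMSO, 31.6, 31.4 and 34.2 with AKTi, 19.2, 19.8 and 18.7 with EZH2i and 11.4, 11.1 and 13.8 in the combination. The arms of both genes stood in the common order, with combination values of -1.63 ± 0.08 and -2.06 ± 0.09.

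Among the fork scaffold and checkpoint genes, CLSPN (hg38 chr1:35720218-35769967, minus strand), the mediator that carries the ATR signal to CHK1 and supports fork speed, had 38, 35 and 40.1 CPM in DMSO, 23, 20.8 and 23 with AKTi, 12.6, 11.9 and 13.6 with EZH2i and 1.37, 0.807 and 1.69 in the combination. It kept 59.1%, 33.6% and 3.42% of the DMSO level, and the log2 fold change was -0.76 ± 0.11, -1.57 ± 0.11 and -4.87 ± 0.15 (combination adjusted p = 7.29e-26). The lowest raw count of the 50 genes, 14, was in a CLSPN combination library. TIMELESS, part of the fork protection complex, had 174, 172 and 187 CPM in DMSO, 113, 112 and 111 with AKTi, 114, 108 and 114 with EZH2i and 38.9, 36.8 and 35.5 in the combination. TIMELESS changed by -0.67 ± 0.06 with AKTi, -0.67 ± 0.06 with EZH2i and -2.26 ± 0.06 in the combination, and the 95% interval of the difference between the single agents was -0.13 to 0.13. WDHD1, which links polymerase alpha to the helicase, changed by -0.91 ± 0.08, -1.35 ± 0.08 and -2.69 ± 0.09.

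**Figure D3:**
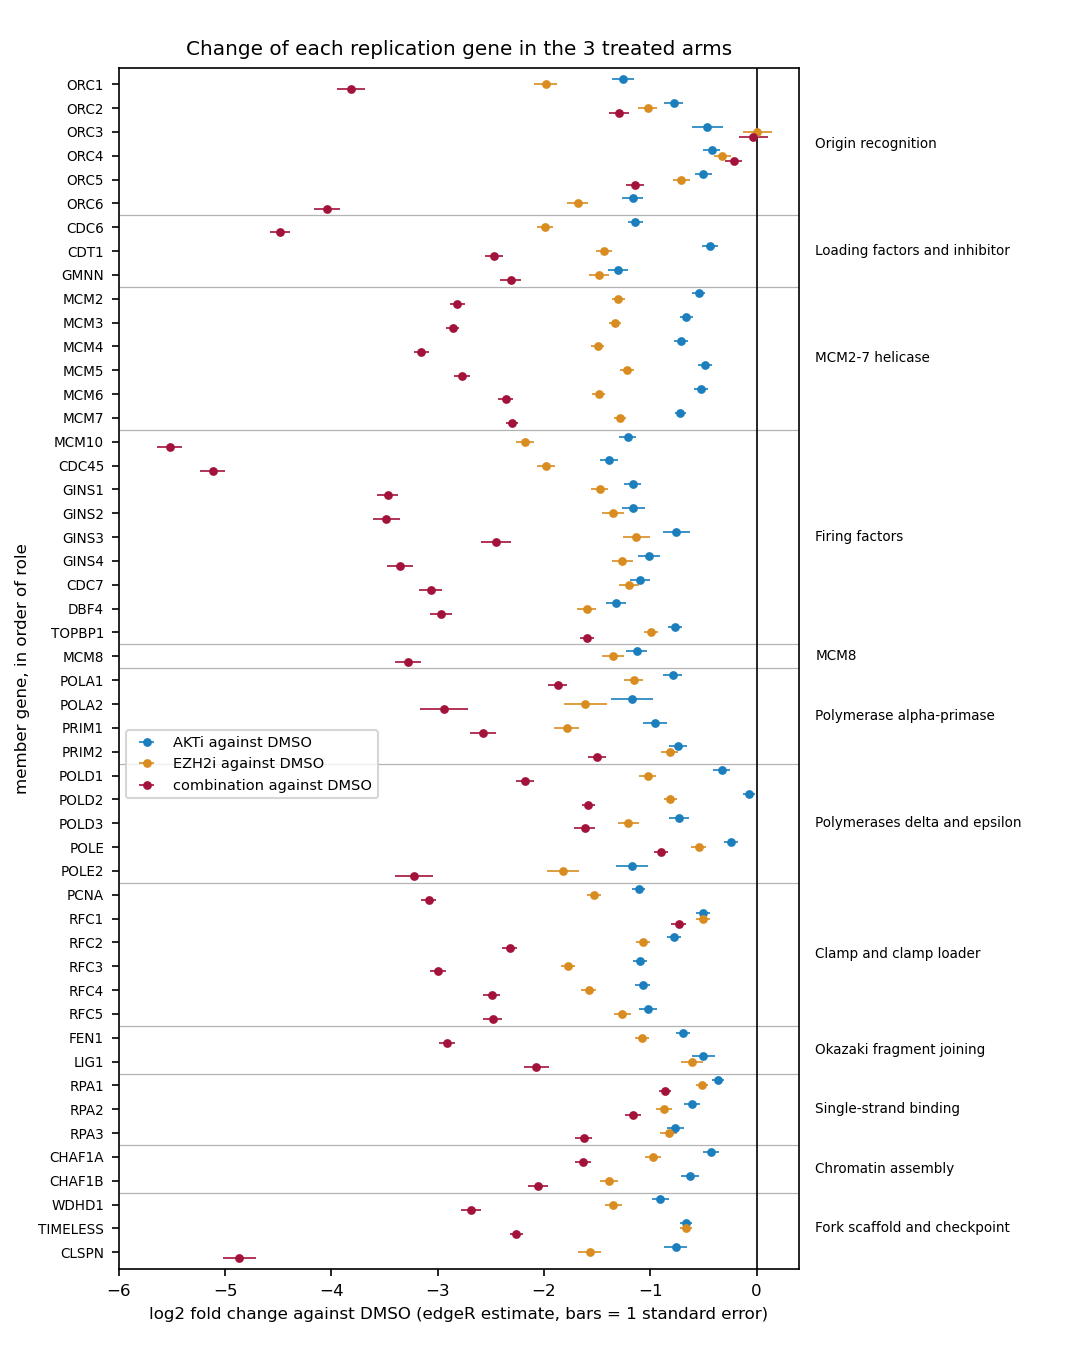
Log2 fold change against DMSO (x axis) of each of the 50 genes (y axis, grouped by role) with AKTi (blue), EZH2i (orange) and in the combination (red). Points are edgeR estimates and bars 1 standard error, and the red points reach -5.52 (MCM10) and -5.12 (CDC45) among the firing factors but only -0.03 for ORC3.

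Origin licensing (ORC, loading factors and MCM2-7, 15 genes), the polymerases (9 genes) and the clamp with its loader (6 genes) were set side by side. With AKTi their median log2 fold changes were -0.66, -0.74 and -1.05, with EZH2i -1.34, -1.16 and -1.40, and in the combination -2.47, -1.87 and -2.49. Called lower in the combination were 14 of 15, 9 of 9 and 6 of 6 genes, beside 35.2% of all genes tested. Within licensing the range was widest, from -4.48 (CDC6) to -0.03 (ORC3), against -3.22 (POLE2) to -0.90 (POLE) for the polymerases and -3.09 (PCNA) to -0.73 (RFC1) for the clamp and its loader. The differences between these groups of genes were not tested.

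Adding the second agent lowered the genes further. Against AKTi alone, 48 of 50 were lower in the combination and 2 higher (all genes tested: 32.1% lower and 32.1% higher), with a median log2 fold change of -1.67. Against EZH2i alone, 48 were lower and 0 higher (25.7% and 21.1%), with a median of -1.24. The genes not lower were ORC3 and ORC4 both times. ORC3 was higher in the combination than in AKTi by 0.43 ± 0.14 and ORC4 by 0.21 ± 0.08, and neither was called against EZH2i (-0.04 ± 0.14 and 0.11 ± 0.08). Both calls of a higher level were lost when AKTi library A was left out (0.29 and 0.20, adjusted p = 0.124 and 0.0633) or combination library B (0.29 and 0.20, adjusted p = 0.102 and 0.0544). The ORC4 call was also lost without AKTi library B or C (0.20 and 0.15, adjusted p = 0.0699 and 0.166). It was lost as well without EZH2i library A or combination library A (adjusted p = 0.0703 and 0.108). DESeq2 (adjusted p = 0.0543) and a test of all genes with at least 1 count (adjusted p = 0.0943) did not call it either.

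The single agents were also compared directly, at their own doses and exposure times. The genes were lower with EZH2i than with AKTi in 38 of 50 cases and higher in 1 (all genes tested: 25.1% lower and 25.4% higher), with a median of -0.40. The count was 30 by library size alone, the lowest of the alternatives run. All 6 MCM2-7 genes and all 5 polymerase delta and epsilon genes were lower with EZH2i, the largest differences being CDT1 (-1.00 ± 0.08), MCM10 (-0.96 ± 0.09) and MCM6 (-0.96 ± 0.07). ORC3 was the gene higher with EZH2i, at 0.47 ± 0.14, a call lost without AKTi library A (0.36, adjusted p = 0.0666). No gene was called in opposite directions by the 2 agents against DMSO.

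The interaction tests whether the log2 fold change in the combination differs from the sum of those of the single agents, and its estimate is the difference between the 2. It was negative in 27 of 50 genes, so that they fell by more than the sum, and positive in 5 (all genes tested: 17.5% negative and 10.7% positive). Leaving out each library gave 25 to 27 negative and 3 to 6 positive calls, and the lowest positive count, 3, came without combination library A. The median was -0.39, beside -0.05 over all genes tested. The 3 most negative were CLSPN (-2.53 ± 0.21, adjusted p = 4.53e-12), MCM10 (-2.13 ± 0.17, adjusted p = 1.16e-12) and CDC45 (-1.75 ± 0.16, adjusted p = 1.27e-10). All 6 MCM2-7 genes were among the 27, from -1.06 ± 0.10 (MCM5) to -0.30 ± 0.08 (MCM7). The firing factors MCM10, CDC45, CDC7 and GINS1 to GINS4, both Okazaki genes and all 3 fork scaffold and checkpoint genes were negative as well. The 5 positive genes were ORC4 (0.53 ± 0.11), ORC2 (0.51 ± 0.13), GMNN (0.47 ± 0.14), RPA2 (0.32 ± 0.11) and RFC1 (0.28 ± 0.10), which fell by less than the sum. Some of these calls were lost when 1 library was left out. Those of GINS3 and ORC1 were lost without AKTi library B (-0.41 and -0.46, adjusted p = 0.166 and 0.0681). Those of RFC1 and RPA2 were lost without combination library A (0.20 and 0.28, adjusted p = 0.16 and 0.0741). That of GMNN was lost without combination library B (0.35, adjusted p = 0.0679). The GINS3 call was also lost without DMSO B, AKTi C, EZH2i C, combination A or combination B. The RFC1 call was also lost without DMSO C, AKTi A, EZH2i A or EZH2i C. ORC1 was further lost without combination B or C, and RPA2 without DMSO A or AKTi B. By role, 10 of 15 licensing genes were negative and 3 positive (median -0.57), 2 of 9 polymerase genes negative (POLD1 and POLD2) and 0 positive (median -0.11), and 2 of 6 clamp and loader genes negative (PCNA and RFC2) and 1 positive (median -0.16). None of the 4 polymerase alpha-primase genes was called, with estimates from -0.15 ± 0.32 (POLA2) to 0.17 ± 0.17 (PRIM1).

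**Figure D4:**
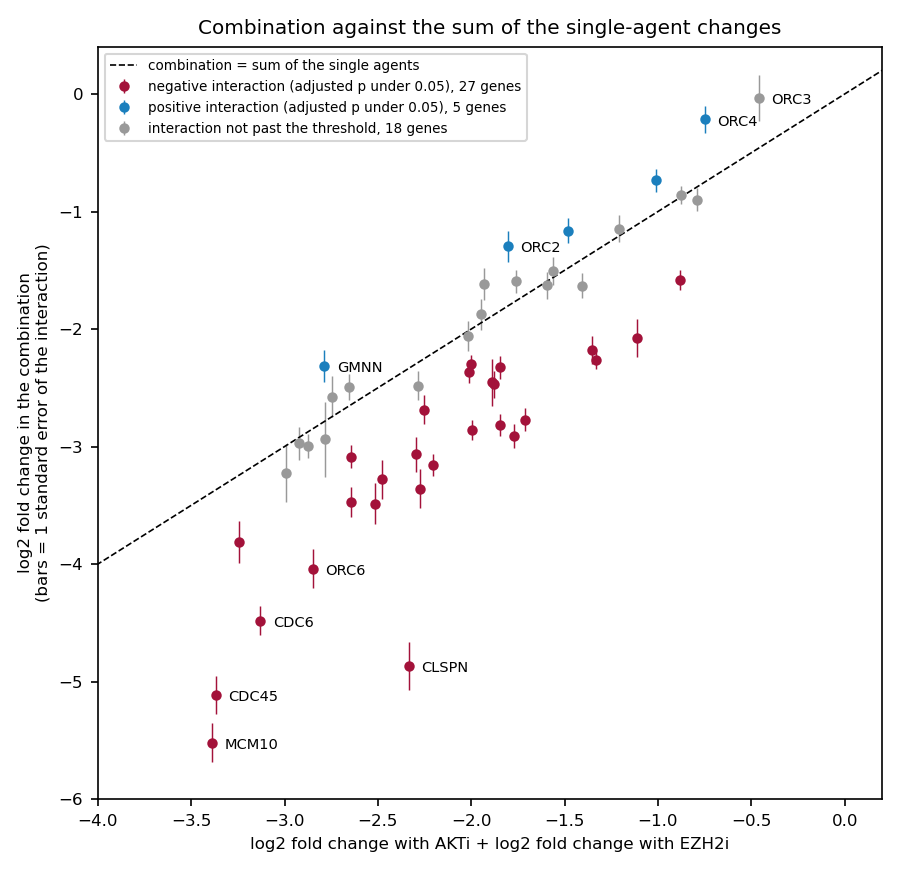
Log2 fold change in the combination (y axis) against the sum of the AKTi and EZH2i log2 fold changes (x axis) for the 50 genes. Bars are 1 standard error of the interaction and the dashed line marks equality. The 27 red genes lie below the line, with CLSPN, MCM10 and CDC45 the furthest, and the 5 blue genes lie above it.

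The effect of AKTi measured without and with EZH2i uses no library in common. Its median over the 50 genes was -0.76 without and -1.24 with EZH2i, and across genes, which are not independent replicates, the 2 effects had a Pearson r of 0.574. The median effect of EZH2i was -1.27 without and -1.67 with AKTi, with r = 0.791.

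A ratio of 2 partner genes within a library does not depend on how libraries are scaled. The log2 ratio of CDT1 to its inhibitor GMNN, per length, lay between -0.41 and -0.14 in the DMSO libraries, between 0.54 and 0.65 in AKTi, between -0.47 and -0.02 in EZH2i and between -0.57 and -0.17 in the combination. AKTi was thus apart from DMSO, with a difference of 0.87, and the other 2 arms overlapped DMSO. DBF4 to CDC7 lay below every DMSO library with AKTi and with EZH2i and overlapped DMSO in the combination, with differences of -0.23 with AKTi, -0.40 with EZH2i and 0.10 in the combination. POLE2 to POLE was 0.59 ± 0.25 (SD, n = 3) in DMSO, -0.32 ± 0.12 with AKTi, -0.67 ± 0.19 with EZH2i and -1.71 ± 0.05 in the combination. RFC3 to RFC1 went from 1.74 ± 0.11 to 1.14 ± 0.15, 0.45 ± 0.24 and -0.52 ± 0.10 in the same order. In these 2 pairs no treated library overlapped DMSO. POLE2 and POLE had the largest and smallest fall in the combination among the delta and epsilon genes. RFC3 and RFC1 had the largest and smallest among the loader subunits, so these 2 ratios restate those falls. In 12 two-sided exact permutation tests of 3 against 3 libraries, the lowest p was 0.1, the smallest this design can give (0.133 after Benjamini-Hochberg adjustment over the 12), so none could pass 0.05. The highest p was 0.8, for CDT1 to GMNN in EZH2i.

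**Figure D5:**
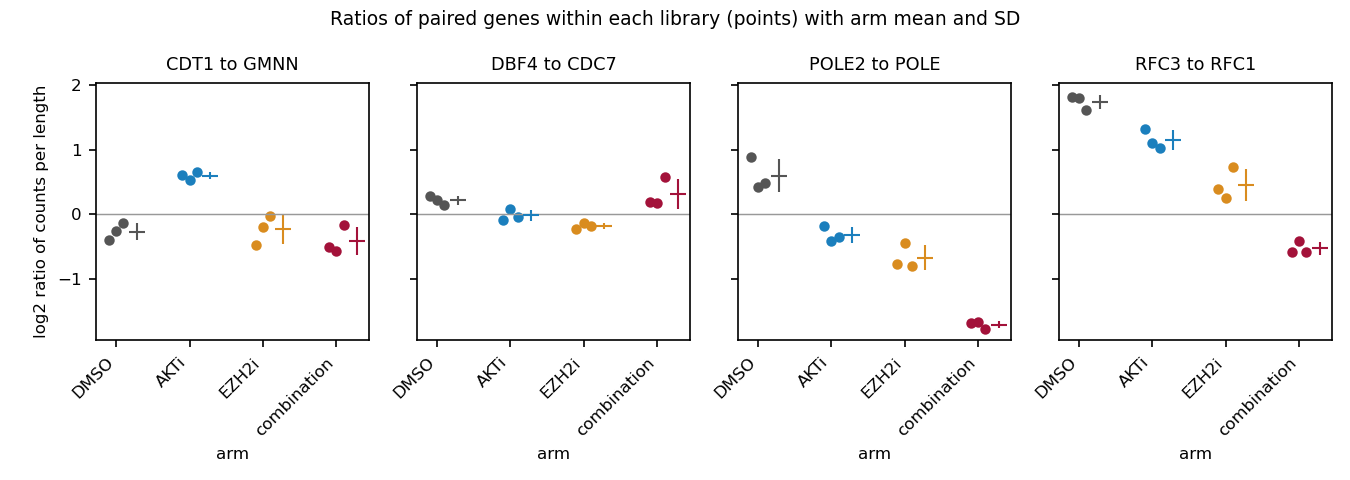
Log2 ratio of counts per length for 4 gene pairs in each library (points) by arm, with the arm mean and SD beside them. CDT1 to GMNN is above DMSO in the 3 AKTi libraries and overlaps it in the other arms, while POLE2 to POLE and RFC3 to RFC1 step down through the arms to -1.71 and -0.52 in the combination.

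Other genes that act in replication but are not among the 50 were counted in the same way. Of 40 such genes, 31 were lower and 1 higher with AKTi (all genes tested: 21.9% lower and 20.6% higher), 34 and 3 with EZH2i (31.5% and 32.6%), and 37 and 3 in the combination (35.2% and 38%). The interaction was negative in 16 of the 40 and positive in 4 (all genes tested: 17.5% and 10.7%). The lowest 3 in the combination were RRM2 (-5.10 ± 0.09), a subunit of ribonucleotide reductase, DTL (-4.94 ± 0.17), which targets CDT1 for degradation, and ASF1B (-4.16 ± 0.09), a histone chaperone. The highest 3 were POLD4 (1.68 ± 0.16), the smallest subunit of polymerase delta, MCM9 (0.60 ± 0.13), the partner of MCM8, and KAT7 (0.35 ± 0.08), a histone acetyltransferase.

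Genes of G2 and mitosis were lower too. All 20 listed were lower in each treated arm, against 21.9%, 31.5% and 35.2% of all genes tested, with medians of -1.34 with AKTi, -0.90 with EZH2i and -2.86 in the combination. Their interaction was negative in 19 of the 20 and positive in 0 (all genes tested: 17.5% and 10.7%), with a median of -0.69. CDK1 (-4.35 ± 0.07), AURKB (-4.14 ± 0.13) and AURKA (-3.31 ± 0.07) fell the most in the combination, and CENPF (-2.05 ± 0.06), TOP2A (-2.48 ± 0.06) and CCNB2 (-2.48 ± 0.07) the least. Between the single agents the lists went opposite ways, since 16 of the 20 G2 and mitosis genes were higher with EZH2i than with AKTi (median 0.45; 25.4% of all genes tested were higher) and 0 lower, whereas 38 of the 50 replication genes were lower. The part of the cells' distribution over the cell cycle in these values was not tested.

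The summed level of the 7 luminal prostate markers stood higher in the arms where the replication genes were lower, which was not tested. It was 3440 to 3540 CPM in DMSO, 5040 to 5170 in AKTi, 5780 to 5940 in EZH2i and 7360 to 7560 in the combination. KLK3 made up the largest part of it, with mean values of 1372 CPM in DMSO and 3941 in the combination. The members did not all move this way, since HOXB13 had a mean of 424 CPM in DMSO and 294 in the combination, and FOLH1 998 in DMSO and 927 with EZH2i. Leukocyte markers summed to at most 1.35 CPM, endothelial markers to 7.38 and fibroblast markers to 18.5 in any library, and their part in the results was not tested.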

How the data were processed

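RNA-seq was analysed from 12 C4.2B libraries, with total counts of 14133755 to 22276417. The authors aligned reads to hg38 with STAR and counted them on genes with HTSeq, and the deposited counts are whole numbers. Versions, annotation and strand setting are not given in the sources used here, so reads of overlapping genes may be split. The table of normalized counts was not used, and 2 luminal markers of the chosen list are not reported here.

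The members and gene lists were chosen with earlier results of these data known. Genes were filtered with filterByExpr (minimum count 10, minimum total 15) and TMM-scaled, and edgeR 4.0.16 (R 4.3.3) was fitted with 1 mean per arm over 12 libraries, with Benjamini-Hochberg adjustment at 0.05. RPKM used the deposited gene lengths. Rankings of genes per length depend on these lengths, which were not compared with the transcripts expressed in these cells. Each library counted as a replicate plate. Libraries of 1 arm differed by more than sampling noise (chi-square per gene 2.57 to 7.77), which does not show that the plates were independent experiments. On simulated data edgeR recovered 163 of 196 genes changed 2-fold in the combination (83.2%, 7 false calls among 16115 genes) and 147 interactions (75%, 15 false calls). In the simulation the single agents changed no gene, and few genes changed in the combination, up or down at random. It therefore did not cover changes as broad as those in these data, or interactions beside single-agent effects.

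Values in every library are given for MCM2-7, the lowest and highest member of each role group in the combination, the 3 lowest and 3 highest interactions and the ratio pairs. Ratios added 0.5 to each count. Alternatives were DESeq2 1.42.0, 2 other scalings, 2 other filters, a fit to the 6 libraries of a comparison, a replicate block, and omission of each library in turn.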

Additional observations from a re-analysis of the deposited data

Results flagged for a closer look

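The effect of one agent differed with and without the other, by the interaction test of edgeR, in 32 of the 50 replication genes. In 27 the interaction was negative and in 5 positive, against 17.5% and 10.7% of all genes tested. Negative interactions were not particular to these genes, since 19 of the 20 G2 and mitosis genes were negative and 0 positive. Among the 50, the most negative were CLSPN (-2.53), MCM10 (-2.13) and CDC45 (-1.75), and the most positive ORC4 (0.53), ORC2 (0.51) and GMNN (0.47), all on the log2 scale. For CLSPN, AKTi alone kept 59.1% of the DMSO level and EZH2i alone 33.6%, while the combination kept 3.42%. For ORC4 the 3 arms kept 74.3%, 79.5% and 85.8%. The GMNN call was lost when combination library B was left out (0.35, adjusted p = 0.0679). Dixon's test of an outlying value was not run on these groups of 3 libraries.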

How the results depend on the processing

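The counts of lower genes against DMSO were 48 or 49 under every alternative, and the falls of the MCM2-7, firing, clamp and polymerase genes against DMSO kept direction and threshold throughout, except POLD2 with AKTi, which was not called. Of the 32 interaction calls, those of GINS3, ORC1, GMNN, RFC1 and RPA2 were lost under at least 1 alternative, RFC1 and GINS3 also by DESeq2 (adjusted p = 0.0545 and 0.0531). The replicate block (letters A, B and C as pairs) left the counts against DMSO at 49, 49 and 49 and the interaction at 27 negative and 5 positive calls, and gave 37 in place of 38 genes lower with EZH2i than with AKTi. Same-letter libraries had correlations of -0.0583 to 0.0688 between their deviations over 18 pairs, and different-letter libraries -0.0685 to 0.0574 over 36 pairs. No pairing by letter was seen, which does not exclude shared handling of libraries with the same letter.

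The genes higher in the combination than in AKTi numbered 2, with 1 by DESeq2, 1 when all genes with at least 1 count were tested, and 0 to 2 with each library left out. Those higher with EZH2i than with AKTi numbered 1, and 0 to 1 with each library left out. Positive interactions numbered 5, with 3 when all genes with at least 1 count were tested and 3 to 6 with each library left out. The cause of these changes was not tested. ORC3 changed sign around 0, in the combination against DMSO to 0.164 by library size, 0.151 by upper quartile, 0.0351 with at least 10 counts in every library and to between -0.172 and 0.0404 without a library. Against EZH2i it turned to 0.0131 by library size, 0.0263 by upper quartile and to between -0.176 and 0.0358 without a library, and EZH2i against DMSO to -0.00586 by DESeq2 and to between -0.0927 and 0.0515 without a library. The median interaction of the polymerases ranged from -0.173 to 0.0804 without a library, the one positive value being without AKTi library C.

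With each library left out, the difference in log2 ratio between combination and DMSO was -0.27 to -0.07 for CDT1 to GMNN, -0.0346 to 0.167 for DBF4 to CDC7, -2.39 to -2.16 for POLE2 to POLE and -2.33 to -2.23 for RFC3 to RFC1.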
